A study of Mus musculus with 8 samples.

Results

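The effect of siRNA against Dnmt3b was measured in wild-type mouse iPSCs (induced pluripotent stem cells). Such cells are made from fibroblasts by reprogramming and can give rise to every tissue of the embryo. The comparison uses 4 of the 8 RNA sequencing libraries of the study, chosen by their labels. The libraries labelled siDnmt3b and double (siRNA against both Dnmt3b and Dnmt3a) carried Dnmt3b siRNA, and those labelled siControl (control siRNA) and siDnmt3a did not, with 1 library in each group. All 4 share the genotype label ColA1_miR203 (+/+); Rosa26rtTA (+/+), which is also given as WT. Cells were cultured on feeders in DMEM with 20% serum replacement, and RNA was taken 1 week after transfection. The other 4 libraries come from a miR-203 knock-in line, with 2 clones given doxycycline for 5 days and collected 2 weeks after withdrawal and 2 given vehicle. They serve only to test whether the effects of both siRNAs add up, as a scale for the spread and in alternative fits.

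DNA methylation is the addition of a methyl group to cytosine, in mammals mostly where a G follows (CpG). DNMT3A and DNMT3B set new methylation, DNMT3L is their cofactor without catalytic activity, and DNMT1 copies the pattern after replication. In the embryo DNMT3B methylates the promoters of germline genes and of the Rhox homeobox genes on the X chromosome, and loss of DNMT3B in humans causes ICF syndrome, with unstable heterochromatin near the centromeres. Mouse pluripotent stem cells grow without these enzymes.

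Values are FPKM, which are fragments scaled to transcript length and to library size, and allow levels to be compared between genes. How Cuffnorm scaled the libraries to each other is not given in the sources used. The effect of a gene is the mean of its difference between siDnmt3b and siControl (without Dnmt3a siRNA) and its difference between double and siDnmt3a (with Dnmt3a siRNA), on the log2(FPKM + 1) scale. It was tested with limma, with Dnmt3a siRNA as a term, over the 11716 genes of 23284 that averaged 1 FPKM or more in the 4 libraries, and errors are limma's standard errors (SE). Each gene has 1 residual degree of freedom, which is the disagreement between its differences without and with Dnmt3a siRNA. Nearly all of the error comes from that disagreement pooled across genes, so a gene whose own differences disagree can pass. No group has a second library, so p-values do not measure a spread between replicates. Nothing in the labels says that the libraries came from separate cultures. FPKM summed to 512645 in siControl, 526330 in siDnmt3a, 520773 in siDnmt3b and 586657 in double, and between 11620 and 11767 genes per library reached 1 FPKM. The depth in fragments is unknown.

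Transcripts of the targeted gene were barely lower. Dnmt3b (GRCm38, chr2:153649450-153687730, plus strand) stood at 146 FPKM in siControl and 128 FPKM in siDnmt3b, which is 12.3% lower. With Dnmt3a siRNA it stood at 135 FPKM both in siDnmt3a and in double. The libraries with and without Dnmt3b siRNA overlapped, the effect was -0.09 ± 0.11 (log2, SE), and it did not pass the test (limma adjusted p = 1.0). Among all genes tested, 19% had an effect further below 0, and so did 2% of the 500 genes nearest in expression. RNA was taken 1 week after transfection, and earlier levels were not measured. The Dnmt3b transcript in double thus shows no reduction at that time and cannot tell whether there was one earlier. Each library is called here by its label, and no direction is a statement about the amount of DNMT3B. Protein and DNA methylation were not analysed here, and neither were the sequences of the siRNAs.

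**Figure D1:**
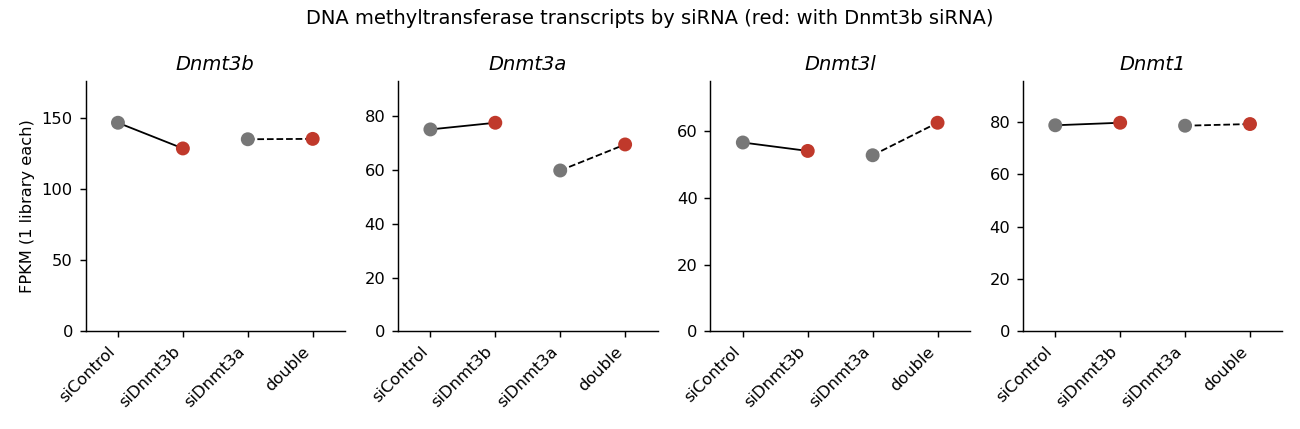
FPKM of the DNA methyltransferase genes and Dnmt3l in the 4 wild-type libraries, 1 point per library, with lines joining the libraries compared and red points for those labelled with Dnmt3b siRNA. Dnmt3b was 128 FPKM in siDnmt3b against 146 FPKM in siControl, and 135 FPKM in both libraries with Dnmt3a siRNA.

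The other methyltransferase genes did not pass the test either. Dnmt3a was at 75.1 FPKM in siControl, 77.6 in siDnmt3b, 59.8 in siDnmt3a and 69.5 in double, an effect of 0.13 ± 0.10 (adjusted p = 1.0). Its values lay lower in both libraries labelled with Dnmt3a siRNA than in both without. Dnmt3l, at 56.5, 54.0, 52.7 and 62.5 FPKM in the same order, was highest in double. Dnmt1 varied least, between 78.5 and 79.6 FPKM. Over the list of DNA methylation machinery, none of the 29 members tested passed in either direction. The median effect of that list was -0.00357 against -0.00135 over all genes tested. The list includes readers of methylated DNA such as Zbtb38. Zbtb38 was at 3.54 and 3.42 FPKM without Dnmt3b siRNA and at 2.95 and 2.89 FPKM with it. Its libraries did not overlap, but its effect of -0.19 ± 0.12 did not pass (adjusted p = 1.0).

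Across the transcriptome 22 genes were higher with Dnmt3b siRNA (0.188% of those tested) and 31 were lower (0.265%), at a limma adjusted p under 0.05. Both differences went the same way in 19 of the 22 and in 29 of the 31. The libraries with and without Dnmt3b siRNA did not overlap in 15 of the 22 and in 23 of the 31, against 12.7% (higher) and 13.1% (lower) of all genes tested. The calls rest on the same values as these counts. Agreement in sign and lack of overlap are thus largely set by the selection and are no separate support. An effect of 1.5-fold or more with both differences in the same direction was reached by 6 genes upward (0.0512%) and 11 downward (0.0939%). The difference without Dnmt3a siRNA and the difference with it share no library, and across the 11716 genes they were nearly unrelated (Pearson r = -0.02, Spearman rho = -0.03, across genes, which are not independent replicates). They had the same sign in 48.5% of genes. For scale, the doxycycline differences of clones 1 and 2 of the knock-in line, which share no library either, had the same sign in 83.4% of genes (Pearson r = 0.87). That scale is not a matched one. The clones repeat the same treatment, whereas the siRNA differences were taken without and with Dnmt3a siRNA, and effect sizes were not matched.

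**Figure D2:**
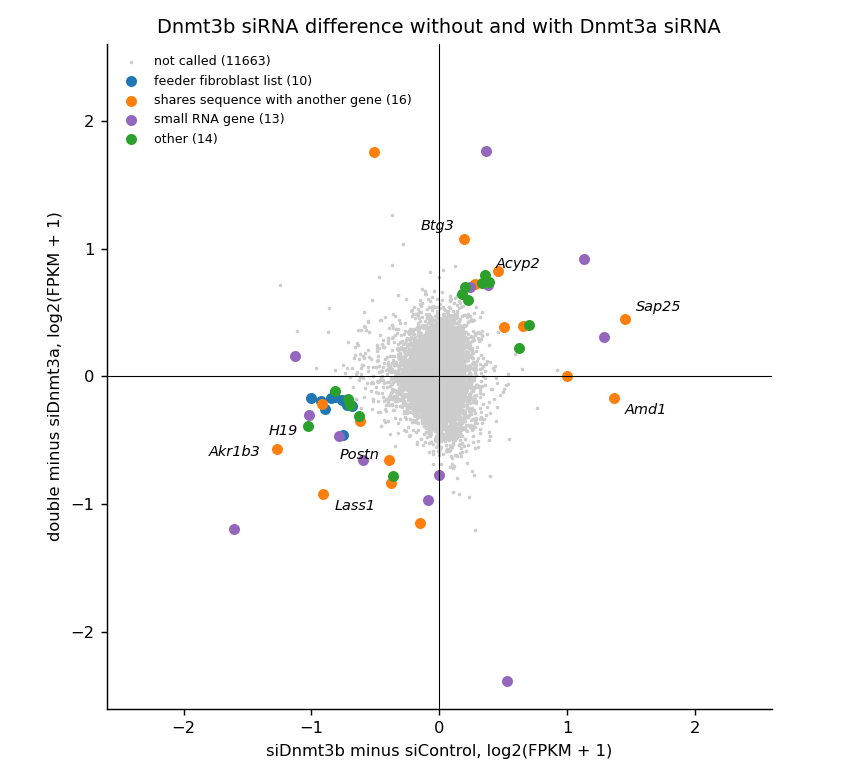
Each gene's difference between siDnmt3b and siControl (x) and between double and siDnmt3a (y), in log2(FPKM + 1), for the 11716 genes tested. The gray cloud has no slope (r = -0.02), and the 53 coloured genes are those that passed the test. Of these, 10 belong to the feeder fibroblast list, 16 share sequence with another annotated gene (Akr1b3 only by a RefSeq synonym) and 13 are small RNA genes. Shares of the last classes among all genes tested were not counted.

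No gene passed the test of departure from additivity, which asks whether the difference with Dnmt3a siRNA departs from the difference without it (limma over all 8 libraries in 6 groups, 0 of 11716 genes, with 470 at an unadjusted p under 0.05). The spread in that test comes from the knock-in clones and is assumed to hold for the wild-type libraries. With clone number as a replicate block 1 gene was called positive and 1 negative, and with no minimum FPKM 18 and 10. The same spread, used for the Dnmt3b siRNA effect itself, leaves 0 genes called, with 480 at an unadjusted p under 0.05. With the pooled disagreement of both differences in the 4 wild-type libraries, 584 genes had an unadjusted p under 0.05 and 53 passed after adjustment.

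The genes called fell into 4 classes. Small RNA genes made up 5 of those higher and 8 of those lower. A polyA library does not measure such short RNAs reliably, and they are not described further. A further 9 higher and 7 lower genes share transcript sequence with another annotated gene by alignment. The exception among them is Akr1b3, which is placed here only as a parent of a RefSeq pseudogene. The alignment covered only called and named genes. Shares of the small RNA and shared sequence classes among all genes tested were not counted, so an excess cannot be read from these numbers. Where both genes are counted, fragments that match both are divided by estimation. The partner of Hist2h2bb is not a gene of the table. Feeder fibroblast markers made up 10 of the lower genes and none of the higher ones. This leaves 8 higher and 6 lower genes.

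Of those 8, 4 have names rather than clone or predicted symbols. Acyp2, an acylphosphatase (chr11:30505991-30649587, minus strand), was at 3.27 FPKM in siControl, 4.47 in siDnmt3b, 2.96 in siDnmt3a and 5.87 in double. It was higher in both libraries with Dnmt3b siRNA, by 0.58 ± 0.12 (adjusted p = 0.000876). Rln3, which encodes the peptide hormone relaxin 3 (chr8:84042929-84045000, minus strand), was at 4.88, 6.40, 4.27 and 7.73 FPKM in the same order and rose by 0.53 ± 0.11 (adjusted p = 0.00176). Znhit3, which encodes a zinc finger HIT protein of ribonucleoprotein assembly, was at 38.7, 43.9, 39.5 and 62.2 FPKM (0.41 ± 0.10, adjusted p = 0.0146). Its increase was mostly in double. Crct1, a gene of epidermal differentiation, was at 5.43, 6.39, 5.43 and 9.43 FPKM (0.45 ± 0.11, adjusted p = 0.0162), and double again stood highest. The longest transcripts of Acyp2, Rln3, Znhit3 and Crct1 have 863, 634, 998 and 718 bases. After correction for GC content and transcript length, described below, none of them passed (limma adjusted p = 0.295, 0.261, 0.418 and 0.418). Their effects were then 0.52, 0.43, 0.34 and 0.35. In fits with no term for Dnmt3a siRNA, all 4 were called without siDnmt3b (567 genes were), and none without siControl, siDnmt3a or double.

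Feeder fibroblasts lie under iPSC colonies and can be collected with them. Of 40 markers on the list, 36 were tested, 10 fell (0.265% of all genes tested did) and 32 had an effect below 0 (50.5% of all genes did), with a median of -0.31 against -0.00135 over all genes. Col1a1, a chain of type I collagen (chr11:94936224-94953042, plus strand), was at 36.1 FPKM in siControl, 18.6 in siDnmt3b, 21.0 in siDnmt3a and 18.2 in double (-0.56 ± 0.10, adjusted p = 7.83e-05). The siControl library stood apart, and the other 3 lay close together. Col3a1, type III collagen, had the same pattern at 30.3, 15.8, 15.4 and 12.7 FPKM (adjusted p = 4.02e-05). Dcn, the proteoglycan decorin, was at 8.27, 3.63, 3.65 and 3.13 FPKM (adjusted p = 0.000739). Thbs1, thrombospondin 1, was at 24.9, 13.4, 15.3 and 13.6 FPKM (adjusted p = 0.00082). In all 4 genes the siControl level was at the top and the remaining libraries differed little from each other.

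Postn, the matrix protein periostin (chr3:54361109-54391037, plus strand), was at 7.26 FPKM in siControl, 3.90 in siDnmt3b, 4.49 in siDnmt3a and 2.98 in double (-0.61 ± 0.12, adjusted p = 0.000214). Its differences were -0.75 without and -0.46 with Dnmt3a siRNA. The list's summed level was 1168 FPKM in siControl, 915 in siDnmt3b, 942 in siDnmt3a and 996 in double. Within the libraries without Dnmt3a siRNA the list's median difference was -0.52, and within those with it -0.15. Without the siControl library it was -0.05, and 2 genes of the whole table, neither of them on the list, were then called. Among tested members 17 of 36 (47.2%) had lower values in both libraries with Dnmt3b siRNA than in both without, against 13.1% of all genes. This share was not particular to feeder markers. It was 5 of 10 for the endoderm list, 3 of 6 for trophoblast, 5 of 11 for neuroectoderm and 8 of 20 for Hox genes, but 0 of 8 for mesoderm. Bulk RNA does not show which cells made these transcripts, and the source was not tested. Fewer fibroblasts and less RNA per fibroblast cannot be told apart. With no second siControl library, a deviation of that library alone cannot be told apart from an effect of the siRNAs.

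Bgn, Ly6a and H19, which are not on the list, also fell and stood highest in siControl. Bgn, the proteoglycan biglycan, was at 55.3 FPKM in siControl, 31.0 in siDnmt3b, 32.1 in siDnmt3a and 29.6 in double (-0.46 ± 0.10, adjusted p = 0.00257). Ly6a, the surface antigen Sca-1, was at 30.2, 18.2, 18.2 and 15.5 FPKM (adjusted p = 0.00262). H19, the imprinted non-coding RNA made from the maternal allele (chr7:142575529-142578143, minus strand), was at 17.7, 8.17, 9.71 and 7.18 FPKM and fell by 0.71 ± 0.11 on the log2 scale (adjusted p = 2.16e-07). The siControl library again stood highest. Exons of 2 antisense entries and of the microRNA gene Mir675 overlap H19 in the annotation. The part of fibroblast RNA in the H19 value was not tested.

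**Figure D3:**
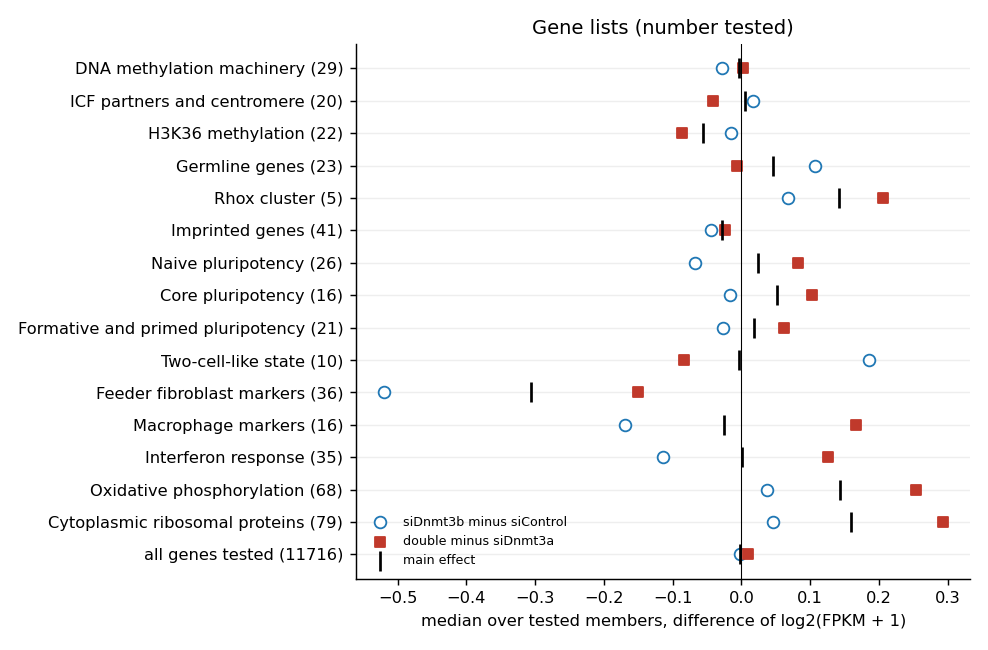
Median difference in log2(FPKM + 1) over the tested members of 15 gene lists and over all genes tested, with the number tested in brackets, without Dnmt3a siRNA (open circles), with it (squares) and for the mean of both (bars). Feeder fibroblast markers lie furthest to the left at -0.52 and -0.15, and genes of the ribosome and of oxidative phosphorylation furthest to the right in the comparison with Dnmt3a siRNA.

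Leaving small RNA genes aside, Lass1, Akr1b3 and Sap25 were among the genes with the largest effects, and each has a partner of shared or copied sequence. Lass1 (now Cers1), a ceramide synthase (chr8:70315775-70331592, plus strand), was at 2.71 FPKM in siControl and 2.79 in siDnmt3a, and at 0.976 in siDnmt3b and 1.00 in double. Its differences of -0.91 and -0.92 were nearly equal, the libraries did not overlap, and the effect was -0.91 ± 0.13 (adjusted p = 3.3e-08). Gdf1, a growth factor of left-right patterning made from the end of the same transcription unit (chr8:70329817-70331587, plus strand), rose by 0.50 ± 0.11 (adjusted p = 0.00192). It was at 7.51 FPKM in siControl, 9.31 in siDnmt3b, 6.82 in siDnmt3a and 11.9 in double. The sum of both genes was 10.2, 10.3, 9.61 and 12.9 FPKM, so that the fall of Lass1 was not seen in the sum, whose difference was 0.01 without and 0.39 with Dnmt3a siRNA.

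Akr1b3, aldose reductase (chr6:34302434-34317478, minus strand), was at 26.8 FPKM in siControl, 10.5 in siDnmt3b, 15.04 in siDnmt3a and 9.81 in double, an effect of -0.92 ± 0.10 (adjusted p = 3.27e-13). RefSeq lists Gm6644 as a transcribed pseudogene of it, under the synonym Akr1b3p. That gene was at 347, 364, 362 and 460 FPKM, in the same order, far above Akr1b3. At these levels a sum of both genes could hardly show a change of Akr1b3. The alignment of transcripts listed no copy of Akr1b3, so the link to Gm6644 rests on the RefSeq entry alone. Akr1b3 is reported as uncertain because of that entry.

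Sap25, which encodes a protein bound to the SIN3 corepressor (chr5:137641334-137642902, plus strand), was at 1.15 FPKM in siControl, 4.89 in siDnmt3b, 3.87 in siDnmt3a and 5.67 in double (0.95 ± 0.12, adjusted p = 3.12e-10). The siControl library was the low one, and siDnmt3a was closer to the libraries with Dnmt3b siRNA than to siControl. The readthrough gene Gm20605 covers the Sap25 transcript, and the sum of both was 7.49, 9.16, 8.71 and 11.0 FPKM. That sum was higher with Dnmt3b siRNA by 0.26 without and by 0.31 with Dnmt3a siRNA. Moap1, a regulator of apoptosis, had values of 1.72, 1.08, 1.88 and 0.616 FPKM (-0.61 ± 0.14, adjusted p = 0.00408). The overlapping Gm20604 was at 15.6, 17.5, 15.1 and 16.4 FPKM, so that a sum of both could hardly show a change of Moap1.

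In other pairs the shares differed more than the sum. Btg3, an antiproliferative gene, was at 0.0153 FPKM in siControl, 0.163 in siDnmt3b, 10.8 in siDnmt3a and 23.9 in double, and was called higher (adjusted p = 0.000283). Together with Gm7334 it was at 33.4, 30.1, 31.8 and 32.9 FPKM. Amd1 (S-adenosylmethionine decarboxylase 1, of polyamine synthesis) was called higher and its near copy Amd2 lower, while their sum was 72.4, 75.1, 64.4 and 56.9 FPKM. Eif3j, a translation initiation factor subunit, was listed at 11.0 and 22.9 FPKM without Dnmt3a siRNA and at 0.00346 and 0.00321 FPKM with it. Its sum with Gm9781 was 62.7, 68.9, 55.9 and 49.4 FPKM. The pairs in this and the 3 preceding paragraphs were chosen after their values were seen.

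**Figure D4:**
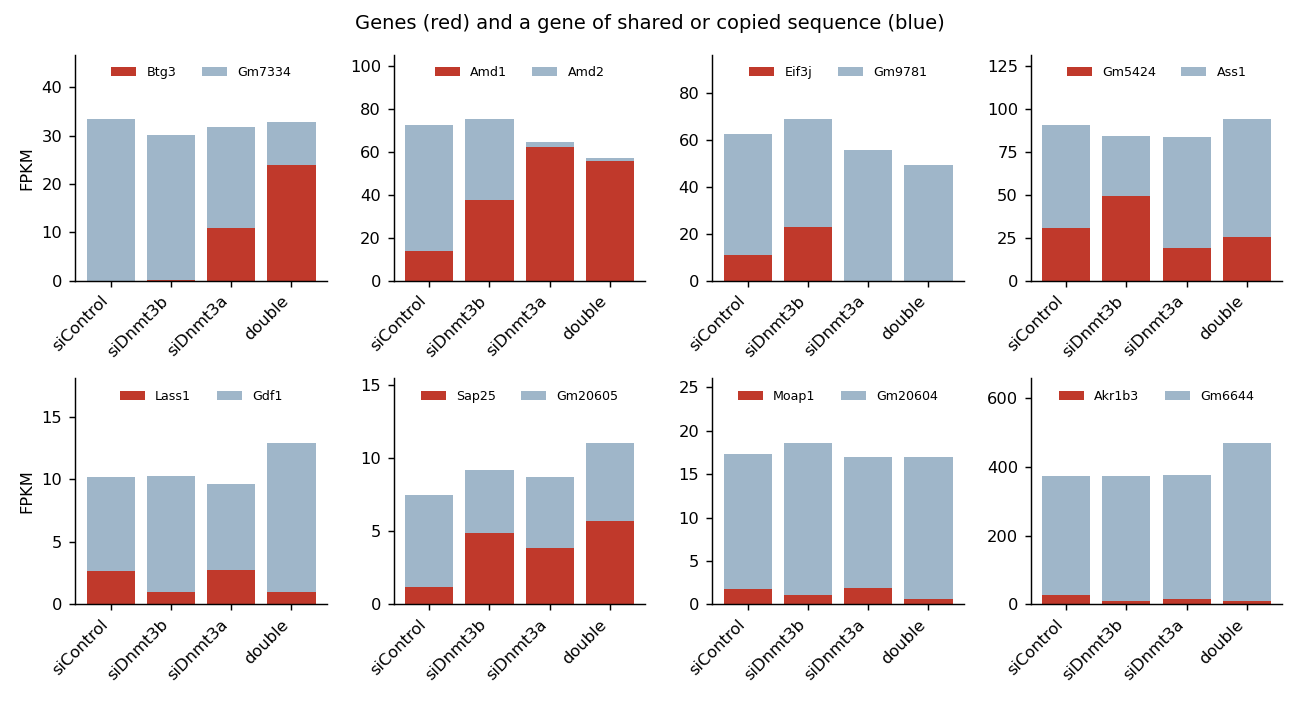
FPKM of 8 genes (red) with those of a gene of shared or copied sequence stacked on top (blue), by library. The red share of Btg3 with Gm7334 differs between libraries while the stack stays between 30.1 and 33.4 FPKM, and for Akr1b3 and Moap1 the red part is too small to move the stack.

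A separate ranking by the smaller of both differences, where both had the same sign, named genes that differed the same way in both comparisons. Agreement between the comparisons is set by this selection. The 12 leading genes upward were Sap25, Acyp2, Fbxo24, Rhox9, Kctd21, Rln3, Cluap1, Cyct, Oasl1, Rpl39l, Hint2 and Rbks, of which 3 passed the test. Fbxo24, which encodes an F-box protein of ubiquitin ligases (chr5:137612503-137629002, minus strand), lies beside Sap25. It was at 0.767 and 0.768 FPKM without Dnmt3b siRNA and at 1.23 and 1.27 FPKM with it. At this level the effect of 0.35 ± 0.14 did not pass (adjusted p = 0.626). An exon of Pcolce overlaps Fbxo24 on the same strand. Cluap1, a gene of ciliary transport, was at 7.68 and 7.35 FPKM without and at 9.96 and 9.46 FPKM with Dnmt3b siRNA (adjusted p = 0.234). Oasl1, an interferon-induced gene, was at 2.34 and 2.24 FPKM without and at 3.12 and 3.10 FPKM with it (adjusted p = 0.553). Kctd21, at 1.21 and 1.34 against 1.86 and 1.94 FPKM, had the same order.

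Cyct and Rpl39l are made mainly in the testis. Cyct, the cytochrome c of sperm, was at 3.24 FPKM in siControl, 4.33 in siDnmt3b, 3.88 in siDnmt3a and 5.08 in double (0.33 ± 0.12, adjusted p = 0.411). Rpl39l, a ribosomal protein gene paralogous to Rpl39, was at 13.5, 16.8, 16.4 and 21.1 FPKM (0.33 ± 0.10, adjusted p = 0.18). In each, both libraries with Dnmt3b siRNA lay above both without, and siDnmt3b exceeded siDnmt3a by little in the second. Hint2 (a mitochondrial hydrolase) and Rbks (ribokinase) had effects of 0.30 and 0.31, and neither passed.

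The 12 leading genes downward were Lass1, Akr1b3, Postn, Hist2h2bb, H19, Moap1, Mthfs, Amd2, Igfbp5, Efemp1, Camk2d and Dnm1, of which 7 passed the test. Hist2h2bb, a histone H2B gene, was at 1.34 FPKM in siControl, 0.782 in siDnmt3b, 1.43 in siDnmt3a and 0.545 in double (-0.52 ± 0.14, adjusted p = 0.0467), and Gm42743 overlaps it on the same strand. Mthfs, an enzyme of folate metabolism, was at 2.37, 1.51, 2.97 and 2.10 FPKM (adjusted p = 0.237). Igfbp5, which binds insulin-like growth factors, was at 9.42, 6.90, 8.39 and 6.39 FPKM (-0.37 ± 0.11, adjusted p = 0.103). For Igfbp5 the libraries without Dnmt3b siRNA were both above those with it. Efemp1 (a matrix protein), Camk2d (a calcium-dependent kinase) and Dnm1 (dynamin 1) had effects of -0.39, -0.34 and -0.34, and none passed.

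Germline genes, many of which are silenced by promoter methylation in other cells, were a list of 45, of which 23 were tested and 22 were too low. None passed in either direction. The median effect was 0.05, made of 0.11 without and -0.01 with Dnmt3a siRNA. Libraries did not overlap in 6 of the 23 upward (26.1%, against 12.7% of all genes) and in 2 downward (8.7%, against 13.1%). Tex19.1, which acts against retrotransposons in germ cells, was at 18.9 FPKM in siControl, 20.5 in siDnmt3b, 18.7 in siDnmt3a and 23.8 in double (0.22 ± 0.10, adjusted p = 0.833). Rpl10l, a ribosomal protein gene of spermatocytes, was at 25.8, 23.8, 23.9 and 38.6 FPKM (0.28 ± 0.10, adjusted p = 0.445), so that its effect rested on double.

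The Rhox cluster had 28 genes on the list, of which 5 were tested, and none passed. Of these 5, 3 had an effect above 0 and 2 below, among them Rhox13 at -0.05. Rhox9 (chrX:37899097-37901770, minus strand) was at 2.49 FPKM in siControl, 3.40 in siDnmt3b, 2.87 in siDnmt3a and 4.47 in double. Both libraries with Dnmt3b siRNA lay above both without, by 0.42 ± 0.12 (adjusted p = 0.1). Rhox9 was also named by the ranking above, which requires both differences to have the same sign. Rhox5, the most highly expressed member here, was at 75.3, 78.9, 81.2 and 101 FPKM (0.19 ± 0.10, adjusted p = 1.0), and siDnmt3b lay below siDnmt3a. Between 17 and 19 of the 28 genes were listed at 0 FPKM in each library.

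Promoters of germline genes often hold the sequence CACGTG, which is the same on both strands, contains a CpG and is known as an E-box. It was found in the 250 bases before the start of 8 of 23 germline or Rhox genes with a sequence in the RefSeq table (GRCm38.p6), against 8.64% of 9171 promoters of tested genes. The motif TCCCGC, searched on both strands, was in 10 of the 23 and in 31.7% of all. Some of these stretches are shown, with the E-box in capitals and on the strand of the gene. They are places where methylation could be asked for in germline genes and in Sap25. Sap25 is on neither the germline nor the Rhox list and was added by name, so its motif is no link to those genes.
Ddx4 (chr13:112652322-112652351, minus strand): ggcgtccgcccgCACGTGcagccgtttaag
Mael (chr1:166238950-166238979, minus strand): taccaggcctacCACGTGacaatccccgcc
Sycp3 (chr10:88459511-88459540, plus strand): gccgttggctccCACGTGagaacgggcatg
Stk31 (chr6:49395472-49395501, plus strand): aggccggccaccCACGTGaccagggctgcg
Sap25 (chr5:137641262-137641291, plus strand): gtgggagcgtgcCACGTGgctgaagaaacg

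Of the 8 germline genes with this motif, 4 had an effect above 0 and 4 below. Ddx4, the germ cell helicase VASA, was at 6.57 FPKM in siControl, 7.35 in siDnmt3b, 5.69 in siDnmt3a and 5.72 in double (0.07 ± 0.11, adjusted p = 1.0). Sycp3, of the synaptonemal complex, was at 2.18, 3.32, 1.96 and 1.32 FPKM (0.05 ± 0.13, adjusted p = 1.0). Sycp3 was thus highest in siDnmt3b and lowest in double. The differences of Mael, a piRNA factor, were 0.13 and -0.01, and those of Stk31, a kinase of germ cells, 0.20 and -0.27. Ddx4, Sycp3, Mael and Stk31 were chosen after their values were seen, from the 8 with the motif. The others had effects of 0.15 (Fkbp6), -0.01 (Mov10l1), -0.09 (Hormad1) and -0.11 (Stag3).

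CpG content of promoters was set beside the effect for the same 9171 genes. In the 1284 genes with an observed over expected CpG ratio under 0.4 in those 250 bases, 2 were higher and 10 lower (0.188% and 0.265% of all genes tested were). The shares in brackets also cover tested genes without a promoter sequence. Among the 1405 with a ratio of 0.4 to 0.6, 1 was higher and 2 were lower. Among the 6482 with a ratio over 0.6, 7 were higher and 3 lower. Median effects lay within 0.01 of 0 in all 3 classes.

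Imprinted genes, expressed from 1 parental allele, included 41 tested members, of which 2 fell and none rose (0.265% and 0.188% of all genes tested did). These were H19 and Dcn, described above. Igf2, the growth factor imprinted opposite to H19, was at 11.8 FPKM in siControl, 7.66 in siDnmt3b, 7.64 in siDnmt3a and 7.35 in double (-0.31 ± 0.11, adjusted p = 0.371). Only siControl stood apart, as in the collagens. Peg10, a retrotransposon-derived gene made from the paternal allele, was at 75.5, 70.7, 74.5 and 56.0 FPKM (adjusted p = 0.648). Here double stood apart. Lower values in both libraries with Dnmt3b siRNA were found in 11 of 41 (26.8%) imprinted genes, against 13.1% of all genes.

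Partners of DNMT3B did not pass the test. The list of ICF genes and centromere proteins had 20 tested members and a median of 0.01, and the list of H3K36 methylation, the histone mark to which DNMT3B binds, had 22 and a median of -0.06. Atrx, a chromatin remodeler of heterochromatin, was at 16.8 FPKM in siControl, 16.8 in siDnmt3b, 15.8 in siDnmt3a and 10.3 in double (-0.29 ± 0.10, adjusted p = 0.411). It was low in double and much the same in the other libraries.

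Pluripotency genes did not pass either. Medians were 0.02 for the naive list (26 tested), 0.05 for the core list (16) and 0.02 for the formative and primed list (21). Pou5f1, which encodes OCT4, had levels of 888 FPKM in siControl, 922 in siDnmt3b, 915 in siDnmt3a and 1224 in double (0.24 ± 0.15, adjusted p = 1.0). Rif1, of telomeres and replication timing, was at 32.7, 33.0, 27.9 and 18.7 FPKM (adjusted p = 0.51). The first was high and the second low in double only. Of the list for the state like that of the embryo with 2 cells, 10 genes were tested, with a median of 0.19 without and -0.08 with Dnmt3a siRNA. Zscan4f, a gene of that state, was at 1.56, 1.87, 1.27 and 1.74 FPKM (0.22 ± 0.13, adjusted p = 1.0).

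Genes of the ribosome and of the respiratory chain had their highest values in double. Of 79 genes of cytoplasmic ribosomal proteins 78 had an effect above 0 (49.5% of all genes did), and none passed. Their median was 0.16, with 0.05 without and 0.29 with Dnmt3a siRNA. Without the double library it was -0.01, and under quantile normalization 0.01. Rpl41, which encodes a very short protein of this group, was at 3772 FPKM in siControl, 4150 in siDnmt3b, 4365 in siDnmt3a and 6752 in double. In oxidative phosphorylation 66 of 68 genes had an effect above 0 and none passed, with a median of 0.14, and 0.01 without double. Ndufs8, a subunit of complex I, was at 59.7, 67.9, 67.4 and 88.8 FPKM (0.29 ± 0.10, adjusted p = 0.379). In both genes siDnmt3b and siDnmt3a lay close to each other and double above them.

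Gene length and GC content moved with these values. The difference with Dnmt3a siRNA correlated with transcript length (Spearman rho = -0.45) and GC content (rho = 0.43) across the 11604 genes with an annotation. The difference without Dnmt3a siRNA correlated with them at rho = -0.09 and -0.26. For the effect of Dnmt3b siRNA the values were -0.42 and 0.27. After correction of each library for both properties, 3 of the 53 genes were called, namely Lass1, Mir1896 and Snord49b. The ribosomal list then had a median of 0.09, oxidative phosphorylation 0.08 and feeder markers -0.29.

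Macrophage and interferon genes changed sign between the comparisons and none passed. The 16 macrophage markers tested had medians of -0.17 without and 0.17 with Dnmt3a siRNA, and the 35 interferon response genes -0.11 and 0.13. Isg15, a ubiquitin-like protein induced by interferon, was at 47.4 FPKM in siControl, 43.7 in siDnmt3b, 42.1 in siDnmt3a and 66.5 in double (adjusted p = 0.55). Tyrobp, a signalling adaptor of myeloid cells, was at 14.8, 13.7, 13.3 and 21.4 FPKM (adjusted p = 0.543). Both were again high in double only. None of the members of the other 11 lists (germ layers, trophoblast, RNA interference, proliferation, p53 targets, stress, Polycomb, Hox and glycolysis) passed, and their medians lay between -0.13 (endoderm) and 0.14 (mesoderm).

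**Figure D5:**
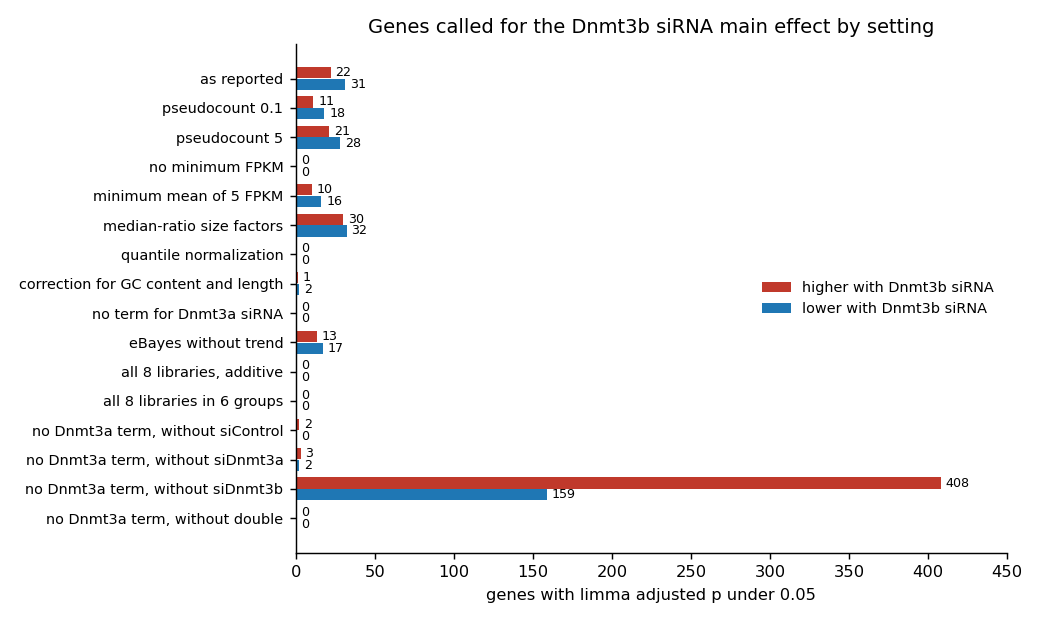
Number of genes higher (red) and lower (blue) with Dnmt3b siRNA at a limma adjusted p under 0.05, under each way of processing or fitting the values. The counts run from 0 in 6 settings to 408 and 159 where the siDnmt3b library is left out, which compares double alone with siControl and siDnmt3a.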

How the data were processed

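The authors deposited 1 table of FPKM values with a column per library. Tools listed by the submitters' processing notes are Cufflinks 2.2.1 with Cuffnorm, TopHat2 2.0.10, SAMtools 0.1.19, Bowtie 1.0.0 and FastQC, and the builds GRCm38 and mm10. The sources used here do not give library scaling or strand setting. Depth is unknown, so no counting intervals were computed.

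Groups came from the labels. limma 3.58.1 (R 4.3.3; lmFit, eBayes with trend, two-sided, Benjamini-Hochberg, threshold 0.05) was fitted to log2(FPKM + 1) with terms for both siRNAs, and tested on simulated data. Positions, GC content and length came from GENCODE M21, and shared sequence from blastn 2.17.0 between transcripts (95% identity over 50% of the transcript or 500 bases) or RefSeq synonyms. Of 836 entries in 26 lists, 812 were matched, 18 by an older symbol.

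Named genes are the methyltransferases, the 12 per direction with the largest smaller difference, the 12 per direction with the smallest p among those called, and up to 4 per list. Small RNA, predicted, clone and pseudogene symbols were not named. Members and lists were chosen with earlier results of these data known. Of 57 named genes, 12 overlap another gene's exon on the same strand and 16 on the opposite strand.

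Alternatives were other pseudocounts, filters, scalings and spreads, and leaving out each library.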

Additional observations from a re-analysis of the deposited data

How the results depend on the processing

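Genes called higher and lower numbered 11 and 18 with a pseudocount of 0.1, 10 and 16 with a minimum mean of 5 FPKM, 13 and 17 without trend, and 1 and 2 after correction for GC content and length. They numbered 0 and 0 with no minimum, quantile normalization, no Dnmt3a term, or all 8 libraries in either fit. Unadjusted p under 0.05 was then reached by 610, 295, 134, 344 and 480 genes. The cause was not tested. All calls at either pseudocount, at the higher minimum and without trend were among the 53. Leaving out each library, with no Dnmt3a term, gave 0 to 408 higher and 0 to 159 lower, of which 16 were among the 53 at the maximum (without siDnmt3b). No paired analysis was possible because the wild-type groups have 1 library each. In the departure test, a block for clone number, whose differences correlated between dox and vehicle (r = 0.40), called 1 positive and 1 negative gene. That test called 0 positive and 1 negative with a pseudocount of 0.1 or quantile normalization, and 18 and 10 with no minimum. It called 0 to 1 negative when each knock-in library was left out.

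List medians moved as follows. Feeder markers had -0.18 with a pseudocount of 5. The list of the state like that of the embryo with 2 cells had -0.0387 at a minimum of 5 FPKM. Quantile normalization gave DNA methylation machinery -0.0403, imprinted genes -0.0494, the list of that embryonic state 0.0391, oxidative phosphorylation 0.0636 and ribosomal proteins 0.014. Correction for GC content and length gave imprinted genes -0.00352, oxidative phosphorylation 0.0767 and ribosomal proteins 0.0874. Without and with Dnmt3a siRNA the medians were -0.0682 and 0.0818 (naive pluripotency), 0.185 and -0.0831 (the embryonic state), -0.52 and -0.15 (feeder markers), -0.17 and 0.17 (macrophage), -0.11 and 0.13 (interferon), 0.0379 and 0.25 (oxidative phosphorylation) and 0.0457 and 0.29 (ribosomal proteins). The correlation of both differences was -0.0662 with quantile normalization and 0.0441 after correction for GC content and length.

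Leaving out each library gave medians of -0.61 to -0.0497 (feeder markers), -0.00686 to 0.337 (ribosomal proteins), 0.0121 to 0.285 (oxidative phosphorylation), -0.0399 to -0.0126 (DNA methylation machinery), -0.104 to -0.000816 (H3K36 methylation), -0.0546 to -0.0246 (imprinted genes), -0.0385 to 0.0465 (naive pluripotency) and -0.101 to 0.0964 (the embryonic state). Among named genes, the sign turned for Dnmt1 with quantile normalization (-0.0492), and with Dnmt3a siRNA for Amd1 (-0.17) and Eif3j (-0.000349). Leaving out each library gave ranges across 0 for Btg3 (-1.58 to 2.85), Amd1 (-0.44 to 1.64), Amd2 (-2.63 to 1.66), Eif3j (-1.79 to 2.79), Dnmt3a (-0.0319 to 0.291), Dnmt3l (-0.0151 to 0.191), Atrx (-0.619 to 0.0441), Rpl10l (-0.0584 to 0.615), Rif1 (-0.665 to 0.126), Isg15 (-0.0314 to 0.564), Tyrobp (-0.0328 to 0.579), Sycp3 (-0.403 to 0.495) and Ddx4 (-0.0813 to 0.231).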
